A study of Arabidopsis thaliana with 15 samples.

Results

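Genes lowered by active STM-GR are those whose RNA was lower after dexamethasone (DEX) was sprayed on 35s::STM-GR Arabidopsis thaliana plants than in both of the sprayed controls. The rule was applied to the deposited normalized counts, which are gene counts divided by a size factor for each library. A member needed a mean of at least 30 in mock-sprayed 35s::STM-GR plants. Its mean in the DEX-sprayed 35s::STM-GR plants had to be at most 0.6 times that mean and at most 0.6 times the mean of DEX-sprayed wild type, with each of the 3 DEX values below all 5 values of those controls. This gave 239 genes, after 5 genes that also met the rule (GA2OX1, CKX3, ARR6, BSMT1 and TPS03) were set aside. The members were 1.26% of the 19039 genes that passed the level of 30, out of 28775 genes counted, and all 239 had an entry in RefSeq.

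All plants were of the Ler background, grown at 21 °C for 6 weeks, and the labelled tissue was inflorescence meristem. The sprayed groups were 35s::STM-GR with 10 µM DEX and 0.02% Silwet L-77 (n = 3), 35s::STM-GR with the 0.02% Silwet mock spray (n = 3) and wild type with the same DEX spray (n = 2), sampled after 5 h. The 7 unsprayed libraries came from wild type (n = 2), from ap1-1 (n = 3), a mutant of the floral gene APETALA1, and from ap1-1 carrying pAP1>>miR STM/BP (n = 2), a microRNA against STM and BP driven by the AP1 promoter, called the microRNA line. Unsprayed 35s::STM-GR and mock-sprayed wild type were not analysed here, so spray, transgene and DEX were separated only between the sprayed groups. The study's design text gives the allele as ap1-4, and the sample labels' name is used. The labels name no inhibitor of protein synthesis, do not say whether 35s::STM-GR was 1 line or several, and do not say whether plants were pooled or replicates grown apart. The p-values below therefore measure the spread between these libraries.

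SHOOT MERISTEMLESS (STM) is a KNOX class I homeodomain protein that keeps cells of the shoot and floral meristem undifferentiated, in part by raising cytokinin and limiting gibberellin. BP, listed as KNAT1, is a related KNOX gene. Fused to the hormone-binding part of the glucocorticoid receptor (GR), STM stays largely in the cytoplasm until DEX binds, so RNA that falls within hours of the spray belongs to early responses, direct and indirect. The 35S promoter is active in most plant cells, so the fusion is present well outside the meristem, where STM is not normally made. AP1, the promoter that drives the microRNA, is active in young floral meristems and later in sepals and petals, and the ap1-1 mutant lacks normal sepals and petals.

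Library totals were 18717248 to 26539358 gene counts. STM itself averaged 18733 normalized counts in STM-GR with DEX, 18668 in mock, 1179 in wild type with DEX, 1071 in wild type, 1091 in ap1-1 and 718 in the microRNA line. It was lower in the microRNA line than in ap1-1 (log2 fold change -0.61 ± 0.10 SE, edgeR adjusted p = 0.00385), and for KNAT1 the change of -0.41 did not pass the test (edgeR adjusted p = 0.188). On the first principal component, with 57% of the variance, both microRNA libraries lay at -113.6 and -113.2 and all others between -31.7 and 54.9. The labelled tissue is the inflorescence meristem, and the stem cell marker CLV3 was at 0 counts in wild type, wild type with DEX and ap1-1, while 11 markers of mature pollen summed to between 20260.8 and 43662.1 outside the microRNA line. In bulk tissue, fewer cells of a type and less RNA per cell cannot be told apart.

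The members spanned a wide range of levels, with mock means from 31.3 to 19197 and a median of 214. Relative to the lower of the 2 control means, the DEX mean was between 0.217 and 0.6, with a median of 0.533. It was at most 0.5 in 91 members, at most 0.4 in 25 and at most 0.3 in 6. These values chose the members and carry no test. The median member was 2.003-fold lower with DEX than with mock, and its coefficient of variation was 11.51% among the 3 DEX libraries and 11.97% among the 3 mock libraries. A rule of the same size in the other direction, with all ratios inverted, was met by 202 genes.

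**Figure D1:**
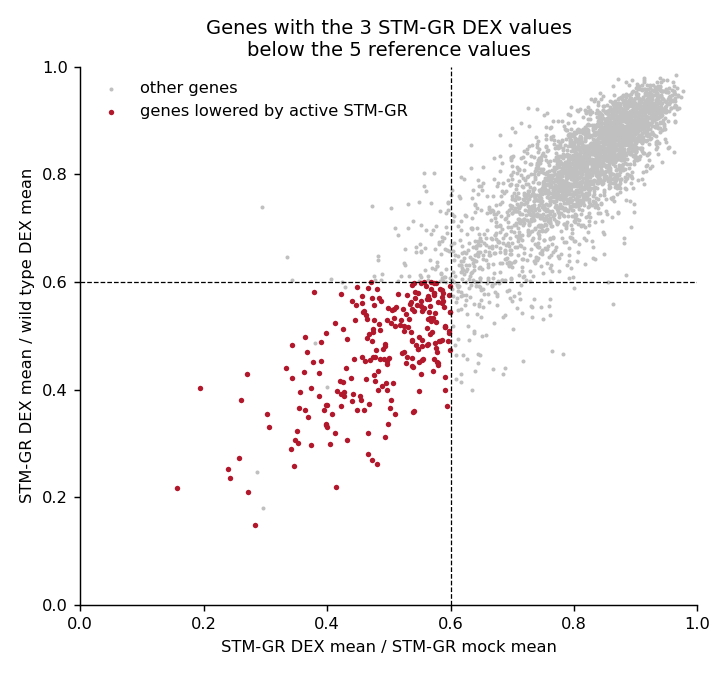
Each point is a gene whose 3 STM-GR DEX values lie below all 5 control values (3504 genes with a mock mean of at least 30, 18.4% of such genes). The horizontal axis is the DEX mean over the mock mean and the vertical axis the DEX mean over the wild type DEX mean. Dashed lines mark 0.6, red points are the 239 members, and the grey points inside both lines are the genes set aside. The members run on from the main cloud without a gap at 0.6.

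The edge of the rule was not marked by a gap. Just inside lay AT5G39220, AT5G44020, AT4G23670 and AT4G23820, whose larger ratios were 0.6, 0.5998, 0.5998 and 0.5996. Just outside were AT4G39320 at 0.6002, AT5G61570 at 0.6005, TYRDC at 0.6008 and CEP3 at 0.6009. A limit of 0.5 in place of 0.6 left 91 genes and one of 0.7 gave 524. Of the 239 members, 143 met the rule again whichever of the 8 sprayed libraries was left out, and the others depended on at least 1 library. When 1 library was left out, between 10 members (mock replicate 2) and 30 members (DEX replicate 2) no longer met it. Members described below that depended on at least 1 library included SHN1, AT1G29660, XYL1, MYB82, ARR5, EXO, LOX4, AT3G22275, DFR, BLH6 and AT5G44020.

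The other groups were not used by the rule, and there the members split. In unsprayed wild type they stood at or above the sprayed controls. The median member was at 1.13 and 1.15 times its mock mean in the 2 unsprayed wild type libraries, against 1.06 and 1.02 in wild type with DEX, and the unsprayed mean was the higher of the wild type means in 167 of 239 members, against 50.6% of all genes at this level. All 3 STM-GR DEX values were below both unsprayed wild type values in 228 members (32.0% of all genes at this level) and above both in 0 (28.8% of all genes). The DEX values were chosen to be low, so these counts describe the members and are no test of them.

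In ap1-1 and the microRNA line the median member was again near its mock mean, at 0.99, 0.92 and 1.13 in the ap1-1 libraries and 1.05 and 1.02 in the microRNA libraries. The members were spread far more widely there, with quartiles in the first microRNA library at 0.648 and 1.585, against 0.942 and 1.255 in the first unsprayed wild type library. Means of at most 0.5 times the unsprayed wild type mean were found for 33 members in ap1-1 and 48 in the microRNA line, against 4 in mock and 1 in wild type with DEX. In 22 members the ap1-1 mean was below the STM-GR DEX mean, and in 38 the mean of the microRNA line was. No share over all genes is given for these counts of means, so they describe the members only. In edgeR, falls of at least 2-fold from wild type were called in 10.9% of members in ap1-1, against 0.77% of all genes tested. For the microRNA line against wild type these shares were 18.4% and 7.78%. All DEX values lay below all ap1-1 values in 183 members (26.1% of all genes) and below both microRNA values in 192 (38.5% of all genes). They lay above them in 8 (27.2%) and 27 (38.2%).

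**Figure D2:**
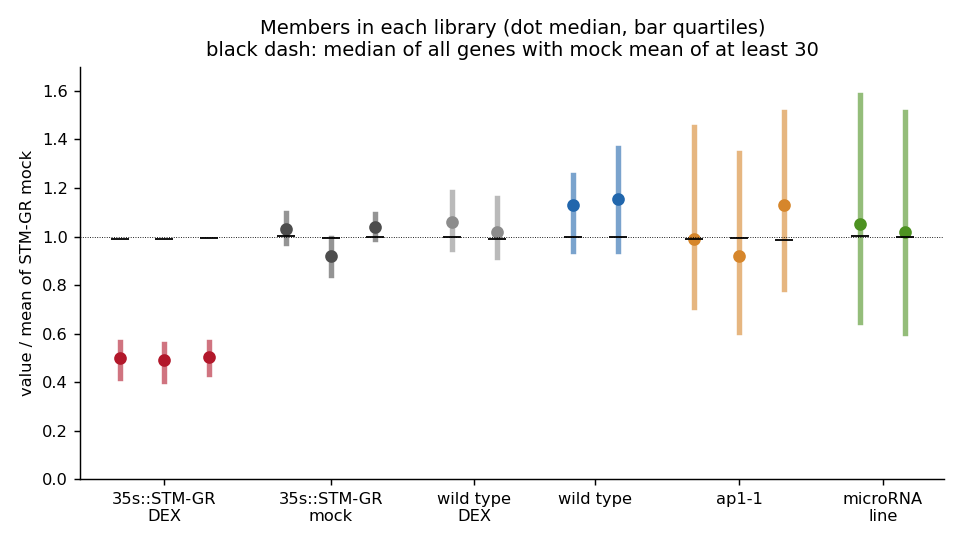
The vertical axis is a gene's normalized count in a library divided by its mean over the 3 mock libraries. Dots are the medians and bars the quartiles over the 239 members, 1 per library, and black dashes are the medians over all genes with a mock mean of at least 30. The DEX libraries sit at 0.49 to 0.505 by construction, all-gene medians stay at 0.987 to 1.00, and the bars are widest in ap1-1 and the microRNA line.

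Genes for the outer surface of the shoot were among the members. The cuticle is a layer of cutin, a polyester of hydroxylated fatty acids, and of waxes, which epidermal cells secrete. Of 28 cuticle genes at this level, a list drawn up after the members had been seen, 4 were members. Members or not, 23 of the 28 (82.1%) had all 3 DEX values below the 5 control values, where 18.4% of all genes did; the rule used these values, so the count describes the list and tests nothing. The 4 were SHN1, an ERF-type factor that raises cutin and wax genes, CYP86A4 and CYP86A7, fatty acid hydroxylases of the cutin pathway, and CER2, needed to extend wax precursors. SHN1 stood at 835, 661 and 849 in STM-GR with DEX, 1382, 1209.6 and 1529 in mock and 1476 and 1610.2 in wild type with DEX. In the unsprayed groups its values were 1608 and 1585 in unsprayed wild type, 1080.5, 835 and 955 in ap1-1 and 791 and 776 in the microRNA line. All ap1-1 and microRNA values were below both wild type values, and they overlapped the range of the DEX libraries.

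In ap1-1 against wild type SHN1 fell (log2 fold change -0.74 ± 0.11 SE, edgeR adjusted p = 0.011), a call that was lost without either wild type replicate. CYP86A4 (log2 fold change -1.15 ± 0.21 SE, edgeR adjusted p = 0.0247) and CYP86A7 (log2 fold change -1.08 ± 0.18 SE, edgeR adjusted p = 0.0181) fell with it. Both calls were lost without wild type replicate 2, and that of CYP86A4 also without ap1-1 replicate 1 or 2 or without either microRNA replicate. CER2 had a log2 fold change of -0.40 with an edgeR adjusted p of 0.0812. CYP86A4 and CYP86A7 are close relatives. Reads that aligned to more than 1 place were set aside in the counting, so reads fitting both may be missing. Over the whole list of 29 cuticle genes tested, 6 fell and 2 rose in ap1-1, against 1.67% and 1.28% of all genes. In the microRNA line against wild type 7 fell and 1 rose, against 12.1% and 5.43% of all genes.

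GDSL lipases are secreted esterases, some of which build or cut cutin and other surface lipids. RefSeq names 58 genes of this family at the level of the rule, and 9 of them (15.5%) were members. The strongest was AT4G28780, at 169.8, 178 and 179 in STM-GR with DEX, 790.2, 591 and 793 in mock and 792 and 704 in wild type with DEX, a mean 0.242 times the lower control. Its unsprayed values were 980.4 and 1405 in unsprayed wild type, 1169, 1019 and 1315 in ap1-1 and 1650.3 and 1517 in the microRNA line, so the groups without active STM-GR all lay above the DEX libraries. RXF26 gave 882, 687 and 797 in STM-GR with DEX, 2526, 1913 and 2376 in mock and 2638 and 2499 in wild type with DEX. Its unsprayed values were 2727 and 3650.4 in unsprayed wild type, 1298, 1151 and 1502 in ap1-1 and 1537 and 1496 in the microRNA line, and here ap1-1 and the microRNA line lay between the DEX libraries and wild type with no overlap on either side. RXF26 fell in ap1-1 against wild type (log2 fold change -1.28 ± 0.15 SE, edgeR adjusted p = 0.0032) and kept that call in every alternative.

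AT5G33370, also a GDSL lipase, had the highest mock mean of all members. Its mean was 8189 ± 853 (SD, n = 3) in STM-GR with DEX, 19197 ± 3651 (n = 3) in mock and 25155 ± 3417 (n = 2) in unsprayed wild type, with 13854 ± 1436 (n = 3) in ap1-1. In all, 5 of the 9 fell in ap1-1 and 1 rose, where 1.67% and 1.28% of all genes did. The riser, AT1G29660, held 115 and 99.1 in wild type but 401, 418 and 414 in ap1-1 and 400.4 and 378 in the microRNA line (log2 fold change 1.94 ± 0.13 SE, edgeR adjusted p = 0.000197). It was at 45.2, 49.3 and 48.99 in STM-GR with DEX against 93.1, 99.997 and 60.8 in mock, so a gene lowered like its relatives by active STM-GR was far above wild type in the mutant.

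**Figure D3:**
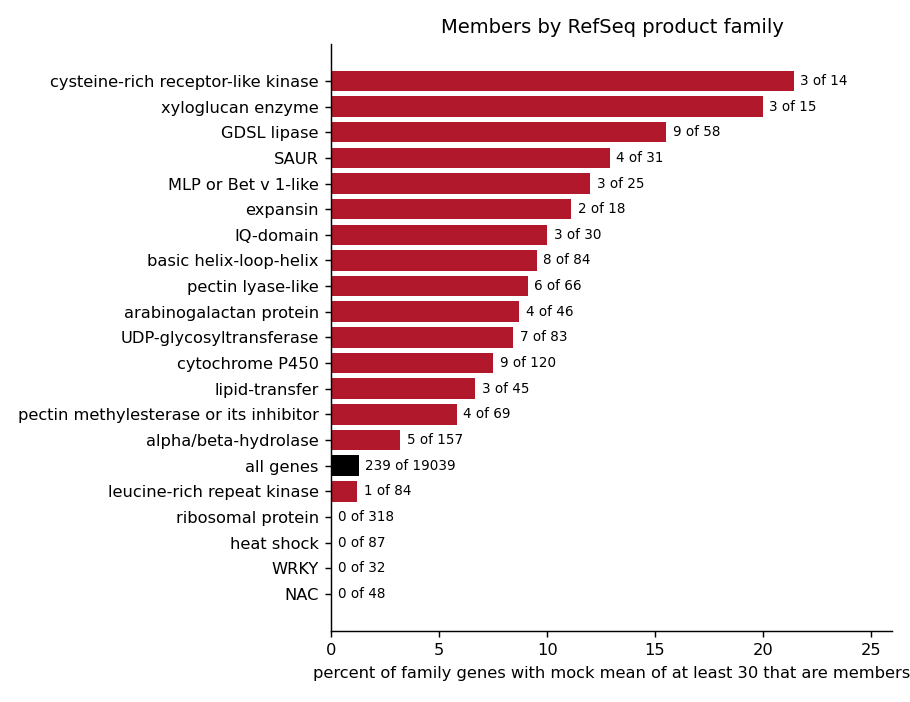
Bars give the percentage of each RefSeq product family, among genes with a mock mean of at least 30, that are members, with the counts at the bar ends; the black bar is all genes (239 of 19039). Families were grouped by product name after the members had been seen, so the bars describe the list and are not a test. GDSL lipases, xyloglucan enzymes and cysteine-rich receptor-like kinases have the longest bars. The median ratio of DEX mean to mock mean in these families was 0.827, 1.069 and 1.005, so a long bar does not mean that the whole family was lowered.

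Enzymes that assemble or loosen the cell wall were also among the members. Xyloglucan endotransglucosylases cut and rejoin the polymers that tie cellulose fibres, and expansins loosen walls as cells grow. XTH7, XTH8 and XTH9 were 3 members of 15 xyloglucan enzymes at this level, and EXPA10 and EXPA14 were 2 of 18 expansins. The median ratio of DEX mean to mock mean was 1.069 over these xyloglucan enzymes, most of which were thus not lowered, and 0.768 over the expansins. XTH9, one of the most abundant members, stood at 7054, 6002 and 5329.97 in STM-GR with DEX, 12619, 10571 and 12885 in mock and 13072 and 10568 in wild type with DEX. Its unsprayed values, 16805 and 16342 in unsprayed wild type, 15483, 22298 and 21691 in ap1-1 and 18587 and 16968 in the microRNA line, were all above the sprayed controls. None of the unsprayed comparisons called XTH9. EXPA10 stood at 493, 511 and 563 in STM-GR with DEX, 1165, 989 and 1090.3 in mock and 1239.7 and 1374 in wild type with DEX, with no overlap between the DEX libraries and the rest.

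Members of the CSLA group make mannan, a hemicellulose, and 3 of 18 cellulose-synthase-like genes at this level were members (CSLA01, CSLA11 and CSLA15). CSLA01 was lowered most, to 376, 438 and 507 from 1667, 1201 and 1800.4 in mock and 2802 and 3111 in wild type with DEX. Unsprayed wild type held 2782 and 3373, ap1-1 905, 483 and 871 and the microRNA line 1022 and 1017. The mock values of CSLA01 lay below every wild type value, sprayed or not, and 1 ap1-1 library was within the range of the DEX libraries. CSLA01 fell in ap1-1 (log2 fold change -2.03 ± 0.22 SE, edgeR adjusted p = 0.0026) in every alternative. CSLA15 went the other way in the microRNA line, with 354 and 307 against 170.2, 140.4 and 186 in ap1-1 and 135 and 116 in wild type (log2 fold change 0.99 ± 0.17 SE, edgeR adjusted p = 0.00458 against ap1-1, lost without microRNA replicate 1).

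Of the pectin enzymes, members were 6 of 66 pectin lyase-like genes and 4 of 69 genes for pectin methylesterases or their inhibitors. Among other wall genes were XYL1, an alpha-xylosidase that trims xyloglucan, XYL4, named as a beta-xylosidase, RHM1 of rhamnose synthesis, TBL26 and 4 arabinogalactan proteins of 46 at this level. XYL1 was the most even of these, at 7472, 7489.98 and 7467 in STM-GR with DEX, 13239.7, 12710.4 and 13474 in mock and 13201 and 12271 in wild type with DEX. TBL26 held 848, 787 and 906 with active STM-GR, against 2071, 1663 and 2207 in mock, and was at 1390.1, 845 and 1420.2 in ap1-1 against 2187 and 2561 in wild type (log2 fold change -0.96 ± 0.20 SE, edgeR adjusted p = 0.0334), a call lost without either wild type or either microRNA replicate. XYL4 overlaps a counted gene on the other strand, as did 28 members in all, and whether reads were counted by strand is not given in the sources used here.

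Some genes of epidermal cell fate were members. Stomata, the pores of the epidermis, arise from a lineage that starts with the bHLH factor SPCH. EPF2 is a secreted peptide that limits entry into that lineage, and POLAR marks the polarity of its dividing cells. These were 3 of the 12 stomatal genes at this level, and 1 of 10 genes listed for trichomes and epidermal patterning was a member. SPCH stood at 108, 121 and 105 in STM-GR with DEX, 228, 208 and 197 in mock and 254 and 230.03 in wild type with DEX. Its unsprayed values were 213 and 278 in unsprayed wild type, 415, 326 and 353 in ap1-1 and 319 and 335 in the microRNA line, so ap1-1 and the microRNA line were above every wild type value. That difference did not pass the test (ap1-1 against wild type, log2 fold change 0.57 ± 0.16 SE, edgeR adjusted p = 0.0991). EPF2 was at 23.1, 28.9 and 23.1 with DEX and 54.2, 36.6 and 46.6 in mock, and its ap1-1 values of 105, 84.8 and 129 were likewise above both wild type values of 62.9 and 46.3 without a call. EPF2 and POLAR no longer met the rule without some single sprayed libraries, while SPCH still met it with any 1 of the 8 left out.

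KAT2, a potassium channel of guard cells, and MYB82, an R2R3 MYB factor that acts in trichome formation, were also members. MYB82 had one of the lowest ratios, with 8.31, 6.797 and 7.39 in STM-GR with DEX, 28.03, 26.9 and 38.97 in mock and 30.3 and 29.3 in wild type with DEX. Only mock replicate 3 was above the level of 30, and MYB82 no longer met the rule without it. In the unsprayed plants it ran to 31.9 and 37.8 in unsprayed wild type, 78.3, 76.3 and 65.6 in ap1-1 and 124 and 115 in the microRNA line, each group above the last with no overlap. MYB82 passed the test in ap1-1 (log2 fold change 1.07 ± 0.21 SE, edgeR adjusted p = 0.0314) and in the microRNA line against wild type (log2 fold change 1.76 ± 0.22 SE, edgeR adjusted p = 0.000665), the first of which was lost without ap1-1 replicate 1 or 2, either wild type or either microRNA replicate and in the fit with a replicate block. The 7 trichome markers, none of them a member, moved alongside. They summed to 175.6 to 188.8 in wild type, 405.6 to 416.9 in ap1-1 and 638.3 to 672.9 in the microRNA line. Their part in the result was not tested.

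Basic helix-loop-helix (bHLH) proteins made up 8 of 84 such genes at this level. HBI1 promotes cell elongation downstream of brassinosteroid and gibberellin, and PRE5 and BNQ2 are small HLH proteins without a DNA-binding region that promote elongation by tying up inhibitory partners. HBI1 held 36.9, 49.3 and 55.5 in STM-GR with DEX, 82.3, 114 and 96.96 in mock and 108 and 109.98 in wild type with DEX, and 119 and 94.4 in unsprayed wild type, 533, 644 and 586 in ap1-1 and 323 and 333 in the microRNA line. It was thus low with active STM-GR and far above wild type in ap1-1 (log2 fold change 2.45 ± 0.15 SE, edgeR adjusted p = 0.000189). Within the ap1-1 background it was lower in the microRNA line (log2 fold change -0.84 ± 0.14 SE, edgeR adjusted p = 0.00439), a call lost without either microRNA replicate. PRE5 averaged 16.2 ± 6.01 (SD, n = 3) with DEX and 45.8 ± 10.7 (n = 3) in mock, and did not pass any unsprayed test. PAR2, an HLH protein that restrains shade responses, was at 356, 287 and 336 in ap1-1 and 184 and 177 in the microRNA line.

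**Figure D4:**
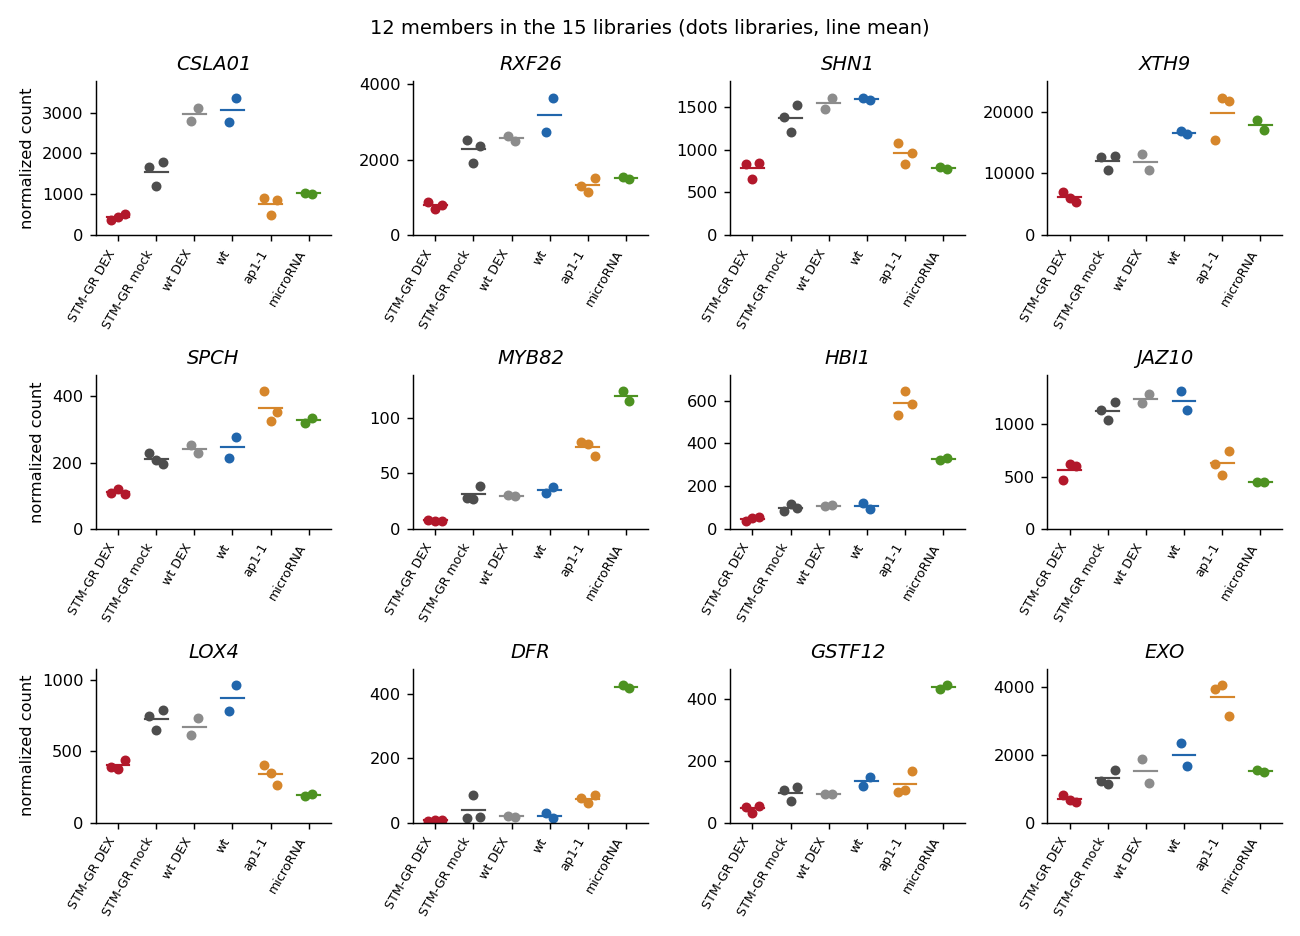
Normalized counts of 12 members in the 15 libraries; each dot is a library and each line a group mean, with axes starting at 0. The STM-GR DEX libraries are below the mock and wild type DEX libraries in every panel. In ap1-1 and the microRNA line the members diverge: CSLA01, RXF26, SHN1, JAZ10 and LOX4 are low, while HBI1 and MYB82 are above wild type and DFR and GSTF12 rise in the microRNA line.

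Some genes of auxin response, transport and turnover were members. Of the genes listed at this level, 0 of 20 for auxin synthesis and response and 1 of 12 for auxin transport (LAX2) were members. The median ratio of DEX mean to mock mean in these lists was 1.031 and 0.828. SAUR proteins are short-lived products of early auxin genes that promote cell expansion, and 4 of 31 at this level were members. SAUR21 belongs to a cluster of near-identical genes, and reads that fit several of them may be missing from its counts. SAUR21 had the lowest ratio of all 239, with 6.46, 5.098 and 7.39 in STM-GR with DEX, 44.3, 33.3 and 42.8 in mock and 27.2 and 31.2 in wild type with DEX. Its unsprayed values, 30.1 and 41.5 in unsprayed wild type, 21.3, 24.2 and 44.9 in ap1-1 and 32.8 and 22.1 in the microRNA line, were spread around the sprayed controls. IAA27 and IAA32, repressors of the Aux/IAA family, LAX2, an auxin influx carrier, PIN2, an efflux carrier best known from roots, and IAMT1, which methylates auxin, were members too. IAA27 held 602, 710.3 and 649.8 with DEX against 1465, 1506 and 1446 in mock. LAX2 held 561, 562 and 532 against 1018, 890.3 and 1067. LAX2 was higher in the microRNA line than in wild type (log2 fold change 0.57 ± 0.11 SE, edgeR adjusted p = 0.00589), a call lost without 2 of the libraries in turn.

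Of the other hormone genes, GA20OX1, which makes precursors of active gibberellin and is a known target lowered by KNOX proteins, was at 59.998, 70.5 and 70.3 in STM-GR with DEX, 168, 143 and 125 in mock and 123 and 122 in wild type with DEX. Its ap1-1 values of 337, 188 and 345 were above the wild type values of 141 and 139.7 without passing the test (edgeR adjusted p = 0.0573). ARR5, a type-A response regulator that damps cytokinin signalling, held 98.8, 94.3 and 73.03 with DEX and 193, 152 and 219 in mock. PYL6, an abscisic acid receptor, held 99.7, 73.9 and 127 with DEX and 203, 189 and 251 in mock. PYL6 was also low in the microRNA line, at 104 and 83.8 against 220.3, 153 and 215 in ap1-1 (log2 fold change -1.07 ± 0.21 SE, edgeR adjusted p = 0.0111), a call lost without either microRNA replicate. EXO, which promotes growth in response to brassinosteroid, held 806, 674 and 620.3 in STM-GR with DEX, 1217, 1137 and 1558 in mock and 1888 and 1165 in wild type with DEX. Members were 1 of 20 genes listed for gibberellin at this level and 1 of 8 type-A response regulators. They were 0 of 13 for cytokinin synthesis and breakdown and 0 of 12 for brassinosteroid. The median ratio of DEX mean to mock mean in these lists was 1.079, 0.721, 0.976 and 1.049. GA2OX1, ARR6 and CKX3 of these lists met the rule but were among the genes set aside.

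Jasmonate, a hormone of wound response and stamen maturation, supplied members of which some were also low in the mutants. Of the listed genes at this level, members were 1 of 15 for jasmonate signalling (JAZ10) and 1 of 14 for jasmonate synthesis (LOX4). LOX4 is a lipoxygenase of jasmonate synthesis, JAZ10 a repressor of its signalling, and CYP94C1 and ST2A modify jasmonates on the way to inactive forms. JAZ10 stood at 469, 623 and 598 in STM-GR with DEX, 1140.2, 1044 and 1214 in mock and 1201 and 1289 in wild type with DEX, and 1318 and 1135 in unsprayed wild type, 618, 512 and 750.4 in ap1-1 and 445 and 453 in the microRNA line. The ap1-1 values overlapped the DEX libraries, the microRNA values lay below them, and both groups were below wild type. JAZ10 fell in ap1-1 (log2 fold change -0.97 ± 0.15 SE, edgeR adjusted p = 0.0115, lost without wild type replicate 1) and in the microRNA line against wild type (log2 fold change -1.45 ± 0.17 SE, edgeR adjusted p = 0.000479). LOX4 had 785 and 964 in unsprayed wild type, 406, 346 and 265 in ap1-1 and 187 and 199 in the microRNA line, against 390.4, 377 and 440.004 with active STM-GR. LOX4 fell in ap1-1 (log2 fold change -1.37 ± 0.17 SE, edgeR adjusted p = 0.00482) in every alternative, and its further fall in the microRNA line (log2 fold change -0.82 ± 0.19 SE, edgeR adjusted p = 0.0232) was lost in 4 alternatives. LOX4 met the rule only with certain libraries present: it dropped out without DEX replicate 1, DEX replicate 2 or wild type DEX replicate 2.

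AT3G22275, a jasmonate ZIM-domain protein by its RefSeq product, went further. It held 151, 155 and 162 in STM-GR with DEX, 362, 258 and 425 in mock and 264 and 264 in wild type with DEX, and 306 and 207 in unsprayed wild type, 84.2, 47.2 and 114 in ap1-1 and 3.64 and 7.72 in the microRNA line, an order in which no unsprayed group overlapped the next. AT3G22275 fell in ap1-1 (log2 fold change -1.65 ± 0.32 SE, edgeR adjusted p = 0.0279), a call lost without ap1-1 replicate 1, either wild type or either microRNA replicate. It fell again from ap1-1 to the microRNA line (log2 fold change -3.80 ± 0.54 SE, edgeR adjusted p = 0.00193), in every alternative. Of all jasmonate genes listed, 9 of 16 for signalling and 6 of 14 for synthesis fell in the microRNA line against wild type and none rose, where 12.1% of all genes fell and 5.43% rose.

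Enzymes of defence and pigment metabolism were further members. CYP79B2 and CYP79B3 turn tryptophan into the precursor of indole glucosinolates, and both were among 6 genes of that list at this level. CYP79B3 held 279, 220.04 and 307 in STM-GR with DEX, 546, 639.8 and 686 in mock and 604 and 615 in wild type with DEX. The pair share much of their sequence, so reads that fit both may be missing from their counts. UGT genes, which attach sugars to small molecules, gave 7 members of 83, among them the neighbours UGT85A2, UGT85A3 and UGT85A1. UGT85A3 ranged from 695 and 591 in wild type to 217, 90.8 and 269 in ap1-1 and 78.9 and 67.3 in the microRNA line, and was at 228, 253 and 332 with active STM-GR. UGT85A2 held 201 and 219.95 in unsprayed wild type, 171, 186 and 265 in ap1-1 and 268 and 256 in the microRNA line, and was not low in either mutant group.

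The flavonoid members were TT7, which adds a hydroxyl group to the flavonoid ring, FLS1, which makes flavonols, and DFR, which leads to anthocyanins, 3 of 13 at this level. GSTF12, needed to carry anthocyanin into the vacuole, was a member outside the list. TT7 held 343, 364 and 406 in STM-GR with DEX, 937, 611 and 868 in mock and 844 and 795 in wild type with DEX, and 892 and 1324 in unsprayed wild type, 1186, 881 and 1128 in ap1-1 and 1085 and 1172 in the microRNA line, with no call in the unsprayed tests. DFR was low in all sprayed libraries but 1, with 5.54, 9.35 and 8.32 in STM-GR with DEX, 14.5, 86.02 and 19.01 in mock and 20.9 and 17.4 in wild type with DEX. Without mock replicate 2 its mock mean was 16.7, below the level the rule asks, so DFR is a member through that library. In the unsprayed plants DFR ran to 30.1 and 14.2 in unsprayed wild type, 76.6, 60.5 and 86.3 in ap1-1 and 428 and 419 in the microRNA line, a rise of 2.5 ± 0.23 SE log2 units from ap1-1 to the microRNA line (edgeR adjusted p = 0.000232).

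GSTF12 was also high in the microRNA line. It held 51.7, 31.4 and 54.5 in STM-GR with DEX, 106, 70.97 and 114 in mock and 94.1 and 93.5 in wild type with DEX, and 118 and 149 in unsprayed wild type, 99.5, 105 and 168 in ap1-1 and 434 and 446 in the microRNA line. Wild type and ap1-1 overlapped, and both microRNA libraries were above them (log2 fold change 1.83 ± 0.22 SE, edgeR adjusted p = 0.000805 against ap1-1). In the flavonoid list as a whole 7 of 18 genes tested rose and 1 fell in that comparison, against 1.84% and 7.82% of all genes. FLS1 and TT7 were not among those that passed.

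Members also included regulators of carpel and organ growth. HEC2, a bHLH factor of the style and transmitting tract, and NGA4, a B3 factor of style and leaf margin, were 2 of 16 carpel and ovule genes at this level. HEC2 held 23.999, 11.04 and 13.9 with DEX, 45.2, 35.5 and 44.7 in mock and 36.6 and 30.2 in wild type with DEX. BLH6, a BELL homeodomain protein of the family that pairs with KNOX proteins, stood at 93.2, 92.6 and 75.8 with DEX, 147, 152 and 141 in mock and 176 and 179.6 in wild type with DEX. Other members known from meristem or organ work were ZPR3, a small inhibitor of class III HD-ZIP factors, FAF1, which affects meristem size, GRF6, a growth-regulating factor, and ROXY1, a glutaredoxin needed for petals. Peptide genes included CLE27, RGF9 and PSK4, and receptor genes included CRK21, CRK22 and CRK40, the 3 members of 14 cysteine-rich receptor-like kinases at this level. Over those 14 kinases the median ratio of DEX mean to mock mean was 1.005. None of the listed genes of floral meristem identity, floral organ identity, organ boundary, meristem maintenance, polarity, the TCP family, the clock, the cell cycle or photosynthesis was a member. The same held for all 48 NAC, 32 WRKY, 87 heat-shock and 318 ribosomal protein genes at this level. Members were 1.26% of all genes at this level, so having 0 members does not set a small list apart. It also does not show that a set was unmoved. The median ratio of DEX mean to mock mean in these families was 1.013, 1.096, 0.998 and 0.853, in that order. All 3 DEX values lay below the 5 control values in 6 of 16 polarity genes and 0 of 17 clock genes, against 18.4% of all genes. The rule used these values, so they test nothing.

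Members lay close together in places. Counting gene order by locus identifier, with a step of at most 2 genes, 20 members formed 9 runs. These were UGT85A2, UGT85A3 and UGT85A1; AT1G27020, AT1G27030 and NPF4.5; and 7 pairs, among them CP1 with CP2, FH3 with BAM5, CRK21 with CRK22 and AT5G52390 with CYP715A1. Chromosome 4 held 58 members, 24.3% of them, against 15.1% of the genes at this level. The share on chromosome 3 was 15.5% against 19.9%.

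KNOX proteins bind sites with a TGAC core, and TGACAG is a longer form often named for them. RefSeq promoter windows of the TAIR10.1 assembly, from 250 bases before to 50 after each start, were available for 238 members and 26709 genes in all. On either strand, TGAC was found in 80.7% of member windows and 81.6% of all windows, and TGACAG, which contains TGAC, in 8.8% (95% Wilson interval 5.8 to 13.1) and 7.0%. The G-box CACGTG was in 9.7% and 7.8%, the auxin response element TGTCTC in 15.5% and 14.2%, the GCC box GCCGCC in 1.7% and 2.6%, TATCCA in 14.7% and 16.1%, the evening-type motif AATATCT in 15.5% and 11.6%, and the TCP-type motif GGNCCAC in 7.6% and 5.4%. A match is a run of letters and not a bound site, and the shares describe these windows.

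TGACAG fell in the 250 bases before the start in 19 members. The windows around it are shown for the 5 of these that are named elsewhere in the text, as read in the direction of the gene, with the motif in capitals as TGACAG or, where it lies on the other strand, as CTGTCA. On TAIR10.1 they come from chr2:7955002-7955035 (minus strand) for HBI1, chr1:27308463-27308512 (plus strand) for LOX4, chr4:6883448-6883507 (plus strand) for CP1, chr4:12181457-12181516 (plus strand) for CRK22 and chr1:30186877-30186936 (minus strand) for AT1G80280.
HBI1: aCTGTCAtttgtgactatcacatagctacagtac
LOX4: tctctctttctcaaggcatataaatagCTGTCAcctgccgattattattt
CP1: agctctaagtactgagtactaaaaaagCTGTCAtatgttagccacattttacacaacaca
CRK22: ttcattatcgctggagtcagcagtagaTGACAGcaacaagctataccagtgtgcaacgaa
AT1G80280: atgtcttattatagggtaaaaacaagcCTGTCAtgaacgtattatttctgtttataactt
The first base of the motif is 249 bases before the start in HBI1, 23 in LOX4, 38 in CP1, 141 in CRK22 and 193 in AT1G80280. These genes did not behave alike in the unsprayed plants: HBI1 rose in ap1-1, LOX4 fell, and CRK22 was at 165, 177 and 174 in ap1-1 against 134 and 84.02 in wild type.

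The 7 unsprayed libraries played no part in choosing the members and allow tests, fitted with edgeR over all 20910 genes that passed a low-count filter, with all 239 members among them. The 3 comparisons share groups, so their counts are not separate evidence. In ap1-1 against wild type, 40 members fell (16.7%, against 1.67% of all genes) and 10 rose (4.2%, against 1.28%). The other 189 did not pass. The median log2 fold change of the members was -0.12, against 0.00 for all genes, with quartiles at -0.58 and 0.29. At least 2-fold differences were found for 26 of those that fell (10.9% of members, against 0.77% of all genes) and 5 of those that rose (2.1%, against 0.7%). Fewer members passed in each direction with either wild type replicate left out. The same held with either microRNA replicate left out, a group outside the comparison that shares its estimate of the spread. The share of all genes called in those fits is not given here, so they show only that the counts of members moved. In these fits the lone library of a group was assumed to vary like the other groups. Some marker sums moved with this comparison. The 7 inflorescence meristem markers, of which CLV3 was at 0 in both groups, summed to 3800.6 to 4036.8 in ap1-1 and 6349.1 to 6980.8 in wild type, and 9 xylem and phloem markers to 8233.1 to 9076.7 and 10663.4 to 11159.9, with no overlap in either. These sums do not stand for each marker. The meristem list holds AP1, the gene mutated in ap1-1, and STM, which hardly moved (log2 fold change 0.02). Of its 6 genes tested, 1 rose and 1 fell, with a median log2 fold change of -0.17. Of the 9 xylem and phloem genes, 1 fell and none rose, with a median of -0.18. None of these markers was a member, and their part in the result was not tested.

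The members that fell in ap1-1 in every alternative were CSLA01, RXF26, LOX4, NPF4.5, the pectin methylesterase-like AT3G43270, the alpha/beta-hydrolase AT4G24140, the UDP-glycosyltransferase AT4G27570, the transporters AT3G54830 and AT5G18840, AT1G12080 and AT5G52390. NPF4.5, a transporter of the nitrate and peptide family, differed far more between groups than most. It held 26.8, 27.2 and 32.4 in STM-GR with DEX, 73.2, 75.3 and 96.01 in mock and 97.2 and 94.4 in wild type with DEX, and 104 and 106 in unsprayed wild type, 0, 2.42 and 4.604 in ap1-1 and 0 and 1.103 in the microRNA line. All ap1-1 and microRNA values were far below the DEX libraries, and its neighbours AT1G27020 and AT1G27030 were not low there. Against wild type, the microRNA line had 1 count over both libraries where wild type had 223, a level 182-fold lower (95% interval 32.3 to 7208, counting error only). Those that rose in every alternative were HBI1, the GDSL lipase AT1G29660 and the acid phosphatase AT5G44020.

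AT5G44020 held 97.8, 104 and 130.3 in STM-GR with DEX, 214, 156 and 184 in mock, 409 and 278 in wild type, 987, 1159 and 1065 in ap1-1 and 661 and 564 in the microRNA line. Both mutant groups were above every other library. AT5G52390, which lies beside CYP715A1, held 92.3, 99.4 and 120.2 with active STM-GR, 410.5, 309.7 and 429.7 in mock, 627 and 999 in wild type and 241, 199.8 and 261 in ap1-1 (log2 fold change -1.80 ± 0.20 SE, edgeR adjusted p = 0.00312).

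**Figure D5:**
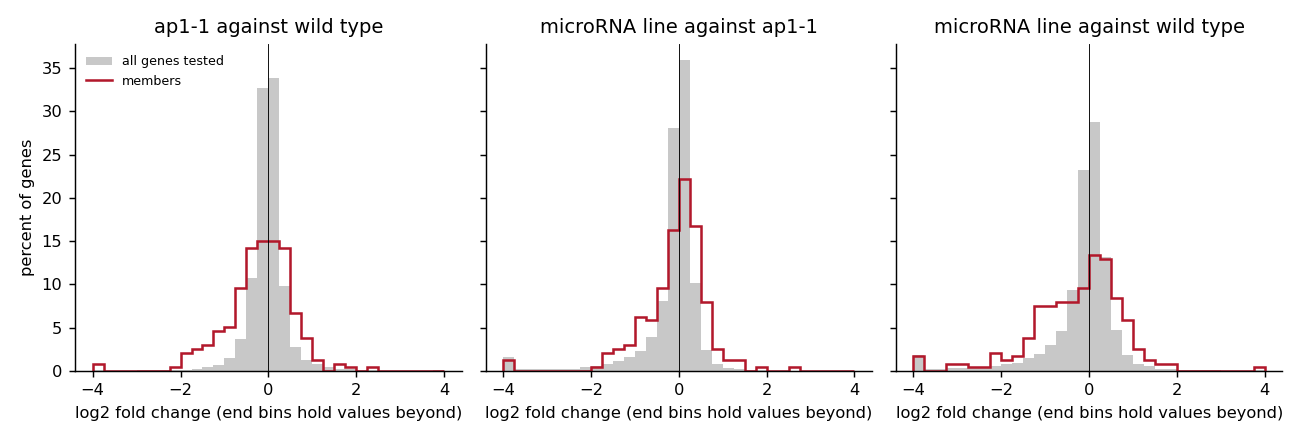
Distribution of log2 fold changes in the 3 unsprayed comparisons, as the percentage of genes in bins of 0.25, for all 20910 genes tested (grey) and the 239 members (red line); the end bins also hold values beyond 4 in size. The members are spread to both sides of 0 more widely than all genes, with quartiles at -0.58 and 0.29 in ap1-1 against wild type, -0.37 and 0.30 in the microRNA line against ap1-1 and -0.87 and 0.40 in the microRNA line against wild type.

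In the microRNA line against ap1-1, the comparison in which STM was reduced, 15 members rose (6.3%, against 1.84% of all genes) and 25 fell (10.5%, against 7.82%), while 199 did not pass. The median log2 fold change was 0.03, against 0.00 for all genes. The quartiles, at -0.37 and 0.30, lay on either side of 0. Leaving out either microRNA replicate reduced both counts, with the lone library assumed to vary like the other groups. How the share of all genes called moved in those fits is not given here. Those that rose in every alternative were DFR, GSTF12, the CCT-motif gene AT1G07050 and the alpha/beta-hydrolase AT1G80280. AT1G07050 held 144, 138 and 129 with active STM-GR, 277, 261 and 287 in mock, 493, 450.4 and 509 in ap1-1 and 1175 and 1185 in the microRNA line (log2 fold change 1.28 ± 0.13 SE, edgeR adjusted p = 0.000306). AT1G80280 held 2762, 3045 and 3127 in ap1-1 and 7333 and 7068 in the microRNA line.

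EXO, AT3G22275, the amino acid transporter AT3G54830 and the RNA gene AT5G40348 fell there in every alternative. EXO held 2338 and 1682 in unsprayed wild type, 3959, 4059.7 and 3149 in ap1-1 and 1548 and 1482 in the microRNA line. All ap1-1 values were above wild type and both microRNA values below it (log2 fold change -1.30 ± 0.17 SE, edgeR adjusted p = 0.00106). AT5G40348 had no count in the microRNA line, where ap1-1 had 116 and wild type 344, so it was at least 23.3-fold lower than ap1-1 and at least 93.4-fold lower than wild type, against a floor of 3 counts over the group. It overlaps AT5G40350 on the other strand. TPS02, a terpene synthase, also had no count there, at least 18.7-fold below ap1-1 and at least 54.9-fold below wild type. Any reads that fit TPS03 as well would be missing from its counts. The call against ap1-1 for TPS02 was lost without either microRNA replicate. Some marker sums moved with this comparison. The 11 pollen markers summed to 6106.2 to 6222.9 in the microRNA line and 20260.8 to 27397.8 in ap1-1, and 7 ovule and carpel markers to 2761.2 to 2794.6 and 3574.1 to 4061.5. The 12 tapetum markers overlapped, at 27747.3 to 29662.6 in the microRNA line and 22839.5 to 28556.5 in ap1-1, and none of them was called. No marker was a member, and their part in the result was not tested.

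Against wild type, the microRNA line had 33 members that rose (13.8%, against 5.43% of all genes) and 63 that fell (26.4%, against 12.1%), and 143 that did not pass. The median log2 fold change was -0.09, against 0.01 for all genes. Calls that held in every alternative were 10 that rose and 31 that fell. Fewer members passed in each direction with either microRNA replicate left out, and fewer rose with either wild type replicate left out. For those fits too the share of all genes called is not given here. DFR rose most (log2 fold change 4.25 ± 0.30 SE, edgeR adjusted p = 9.87e-05). AT1G29660 (1.86), HBI1 (1.61), MYB82 (1.76), GSTF12 (1.71) and CSLA15 (1.39) also rose, these values being log2 fold changes. Apart from the genes at or near 0 counts, falls of more than 2 log2 units among the members named here included AT3G22275 (-5.45), UGT85A3 (-3.14), AT4G27570 (-2.92), AT3G54830 (-2.91), 4CL8 (-2.52), AT1G12080 (-2.27) and LOX4 (-2.19).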

How the data were processed

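RNA sequencing counts from 15 libraries were used. Per the submitters' processing notes, the authors used TopHat2 2.0.6, HTSeq 0.62 and DESeq2 on TAIR10. A table of gene counts per library was deposited, as was a table of normalized signal by the authors, which was found to be counts over a size factor per library. The members were chosen on the normalized signal. Whether reads were counted by strand is not given in the sources used here. Entries naming no gene, 5.49% to 6.63% of the reads, were left out, and these include reads that aligned to more than 1 place. Libraries held 18717248 to 26539358 gene counts, and intervals cover counting error only.

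The members and the gene lists were chosen with earlier results of these data known. Comparisons that the rule used carry no test. The 7 unsprayed libraries were compared in edgeR 4.0.16 and R 4.3.3 (filterByExpr, a minimum count of 10, TMM, quasi-likelihood test, Benjamini-Hochberg adjustment over all 20910 genes, calls at an adjusted p under 0.05). This test was tried on simulated data in which each gene had the same spread in every group. Replicates of wild type and ap1-1 differed more than those of the microRNA line, and the simulation does not cover that. Alternatives were all 15 libraries in 1 fit, DESeq2 1.42.0, limma-voom 3.58.1, edgeR's RLE scaling, no low-count filter, a replicate block and each library left out. Genes named by rule were members on a list, the 12 with a symbol and the lowest ratios, up to 8 that rose and 8 that fell in each test, 4 on either side of the limit of 0.6, transcription factors and neighbours. Other members named were chosen after their values were seen. Names, products and promoter windows came from the RefSeq tables of TAIR10.1, which held 28009 of the genes counted.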

Additional observations from a re-analysis of the deposited data

How the results depend on the processing

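The counts of called members were the results that moved most. In the fit of all 15 libraries, 43 members fell in the microRNA line against ap1-1 and 28 rose in ap1-1 against wild type. That fit takes part of its spread from the sprayed libraries, in which members were chosen for not overlapping, so these counts are no fair test. Shares over all genes are not given for the counts of calls in this section, which show only how far the counts moved. Leaving out 1 library at a time gave 5 to 18 that rose and 5 to 36 that fell in the microRNA line against ap1-1, 4 to 10 and 20 to 42 in ap1-1 against wild type, and 13 to 38 and 34 to 67 in the microRNA line against wild type. The cause was not tested beyond the smaller number of libraries. The number of members was 91 at a ratio of 0.5 and 524 at 0.7. It was 289 and 172 with a minimum mock mean of 10 and 100, 225 by the rule on TMM-scaled CPM, and 223 to 264 without 1 sprayed library. Over the alternatives, with each of the 7 unsprayed libraries left out in turn, single named genes lost 70 calls and gained 39 in ap1-1 against wild type, lost 66 and gained 20 in the microRNA line against wild type, and lost 53 and gained 28 in the microRNA line against ap1-1. None of the alternatives reversed a call of these genes. Same-numbered libraries of different groups had deviations from their group means correlated at -0.128 to 0.035. In a group of 2 libraries these deviations mirror each other, so the values cannot show whether replicates were paired. With the replicate block, 14 members rose and 24 fell in the microRNA line against ap1-1, 8 and 41 in ap1-1 against wild type, and 34 and 66 in the microRNA line against wild type. Replicates of unsprayed wild type and ap1-1 differed more, with a chi-square per gene of 14.83 to 33.59 against 3.23 to 7.95 in the other groups.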
